A study of Mus musculus with 6 samples.

Results

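The 10 genes followed here belong to the NRF2 antioxidant response and were chosen by name as the 10 rows of the authors' deposited table whose symbol is Nfe2l2, Keap1, Nqo1, Hmox1, Gclc, Gclm, Srxn1, G6pdx, Gsr or Prdx1, out of 26436 genes in all. The cells were CAD, a mouse catecholaminergic line of the central nervous system, sampled as 3 libraries of undifferentiated cells grown with fetal bovine serum and 3 of cells differentiated for 5 days in the same DMEM/F12 base without serum but with insulin, transferrin and selenium. Both groups are the same cell line and both media held penicillin and streptomycin; the labels name no altered gene. Loss of serum, the added supplement (selenium among it) and differentiation go together in this design and cannot be told apart. No label states that the libraries within a group stem from separate cultures, so each p-value covers no more than the spread between these libraries, part or all of which may be technical. Each gene has 1 deposited value for the whole comparison; levels in individual libraries were not analysed here.

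NRF2, encoded by Nfe2l2, is a transcription factor that pairs with small MAF proteins on antioxidant response elements in the DNA. In unstressed cells KEAP1 holds it for ubiquitination by a CUL3 ligase, and oxidants or electrophiles that modify KEAP1 cysteines let NRF2 accumulate, so that its activity is set largely at the protein level. Its targets make glutathione, recycle thiols, supply NADPH and remove quinones and heme, and catecholaminergic cells are a setting where this matters because dopamine oxidises to quinones and peroxide.

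All 10 genes were detected, with mean normalized counts (averages over the libraries after scaling for depth) from 167.8 to 6838 in the authors' deposited table, and all 10 had an adjusted p-value. The call rule was the authors' Wald test with an adjusted p under 0.05, and 6 members passed it, 1 higher and 5 lower in differentiated cells. The gene of the regulator itself, Nfe2l2, was the one that rose, whereas both subunits of the glutathione-making ligase, glutathione reductase, glucose-6-phosphate dehydrogenase and peroxiredoxin 1 fell. Keap1, Srxn1, Nqo1 and Hmox1 were not called. In such bulk samples fewer cells that express a gene and less of its RNA per cell cannot be told apart. Over all 20285 genes tested, 35.9% were called in either direction, 18.2% higher and 17.7% lower. All 10 members have a mean of at least 100; of the 13197 tested genes at that level 21.9% were called higher and 25.6% lower. Against these shares, 10.0% of the members were higher and 50.0% lower. The median log2 fold change of the members was -0.28, beside 0.01 over all tested genes and -0.03 over those with a mean of at least 100.

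**Figure D1:**
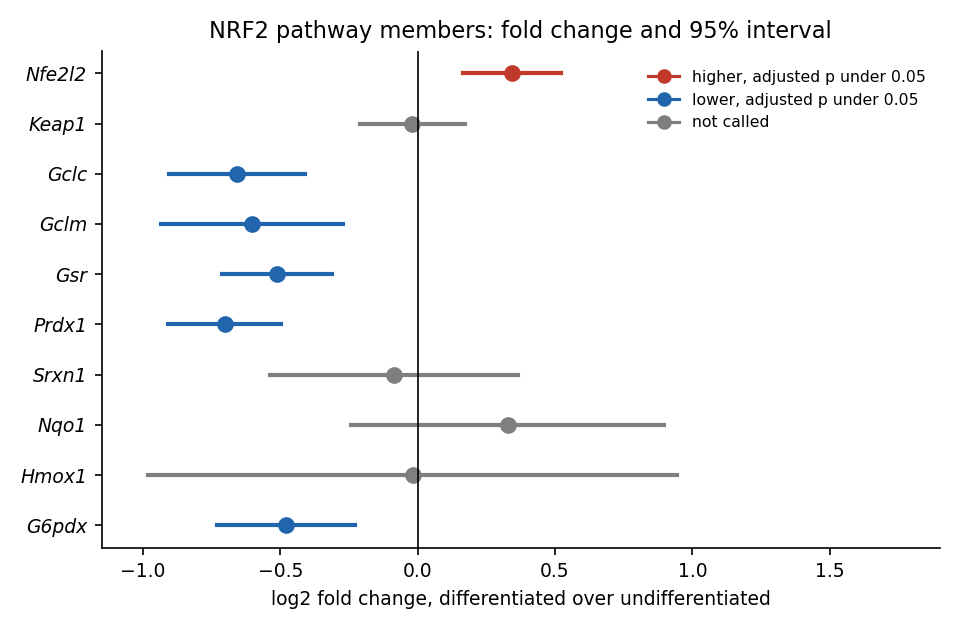
Log2 fold change (differentiated over undifferentiated) for the 10 members, ordered by role, with the 95% interval from the authors' standard error. The 5 genes called lower lie between -0.70 and -0.48, Nfe2l2 lies at 0.34, and the widest interval is that of Hmox1.

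RefSeq promoter windows (GRCm38.p6, 250 bases before to 50 after the start site) were at hand for 7 of the 10 members, namely Nfe2l2, Keap1, Gclm, Prdx1, Srxn1, Nqo1 and G6pdx. They were searched on both strands for the core of the antioxidant response element, TGACNNNGC, and for the AP-1 site, which reads TGACTCA on one strand and TGAGTCA on the other and can overlap the core. Of the 7 windows, 5 held the core once each and 2 held AP-1 sites. Of all 32851 promoter windows in the same table, 12.4% held the core and 5.20% an AP-1 site. Of 87 other genes of the pathway with a window, 17 held the core in any of their windows. The percentages are shares of windows and the 17 of 87 a count of genes, so they are unlike measures. The stretches around the 5 cores are given first because they show how the element reads at each gene. Each is written 5′ to 3′ on the strand that carries the match, with the core in capitals.
Nfe2l2, chr2:75704885-75704913, minus strand: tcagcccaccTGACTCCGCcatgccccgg
Gclm, chr3:122245413-122245441, minus strand: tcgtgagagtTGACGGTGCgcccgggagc
Prdx1, chr4:116685456-116685484, minus strand: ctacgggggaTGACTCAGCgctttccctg
Srxn1, chr2:152105542-152105570, minus strand: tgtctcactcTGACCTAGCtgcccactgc
G6pdx, chrX:74428919-74428947, plus strand: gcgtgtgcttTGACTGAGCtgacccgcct

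The core began 240 bases before the start site in Nfe2l2, 134 in Gclm, 133 in Prdx1 and 57 in G6pdx, counted to its first base in the direction of the gene, and at base 29 of the transcribed part in Srxn1. In Prdx1 an AP-1 site of 7 bases lay wholly inside the core, which was the case in no other of the 7 windows. This holds for the core as searched, which begins with TGAC. The AP-1 site of Srxn1 nearest the start reads TGAGTCA followed by GC, which that pattern does not count. Prdx1, which fell, and Srxn1, which was not called, encode an enzyme and its repair partner, and both windows held 2 AP-1 sites. Their 250 bases before the start site are shown 5′ to 3′ on the strand of the gene, with the core and the AP-1 sites in capitals; the core of Srxn1 lies after the start and stands above.
Prdx1, chr4:116685349-116685598, plus strand: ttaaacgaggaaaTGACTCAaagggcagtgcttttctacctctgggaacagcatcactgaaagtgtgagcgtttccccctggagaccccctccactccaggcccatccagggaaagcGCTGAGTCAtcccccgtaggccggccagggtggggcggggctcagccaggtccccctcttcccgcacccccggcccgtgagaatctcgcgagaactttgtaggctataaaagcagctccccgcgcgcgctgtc
Srxn1, chr2:152105274-152105523, plus strand: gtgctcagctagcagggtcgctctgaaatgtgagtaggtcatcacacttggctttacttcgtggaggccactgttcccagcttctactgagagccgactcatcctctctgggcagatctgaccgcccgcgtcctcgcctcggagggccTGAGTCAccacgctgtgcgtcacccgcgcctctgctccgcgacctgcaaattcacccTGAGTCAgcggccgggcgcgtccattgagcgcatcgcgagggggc

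Among the 5 members with the core, Gclm, Prdx1 and G6pdx were called lower, Nfe2l2 higher, and Srxn1 was not called. The 2 without it in their windows, Keap1 and Nqo1, were not called either. Bases outside the windows were not searched, so these 2 genes may hold the core elsewhere. The next shares cover tested genes of mean 100 or more that have a deposited symbol and a promoter window under it. Of the 1422 with the core, 24.6% were called lower and 25.2% higher, beside 23.9% and 24.1% of the 7050 without it. A match is a description of the letters and no evidence of binding. Genes with an AP-1 site were called lower in 17.1% and higher in 33.3% of 339 cases, against 24.3% and 23.9% of 8133 without one; these shares are descriptions and were not tested.

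**Figure D2:**
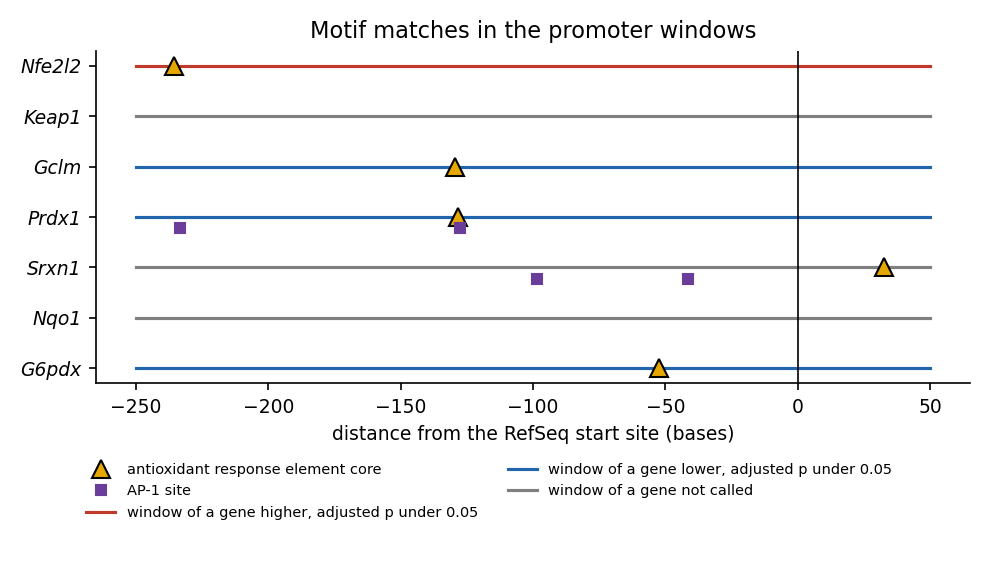
Position of the antioxidant response element core (triangles) and AP-1 sites (squares) in the promoter windows of 7 members, as the distance in bases from the RefSeq start site. Line colour gives the call of the gene; 5 windows hold the core, and in Prdx1 one AP-1 site coincides with it.

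The regulator and its sensor had smaller errors than most genes of their level. Nfe2l2 (ENSMUSG00000015839, chromosome 2, 75675513 to 75704641 in GRCm38) was higher in the authors' deposited table, at a log2 fold change of 0.34 (standard error, SE, 0.09; adjusted p 0.00078), a 1.27-fold increase with a 95% interval from 1.12 to 1.43. Its mean of 1816 normalized counts there corresponds to group means of 1601 in undifferentiated and 2032 in differentiated cells. These group means, like all those below, are implied by the deposited mean and fold change on the assumption that the mean covers 2 groups of equal size. Keap1 (ENSMUSG00000003308, chromosome 9, 21229730 to 21239361), whose product binds NRF2 for degradation, had in the authors' deposited table a log2 fold change of -0.02 (standard error 0.10, adjusted p 0.912). Its 95% interval, from 0.86-fold to 1.13-fold, leaves room only for small changes in either direction. Keap1 shares 10.9% of its exon bases with Gm16754 on the opposite strand, whose mean was only 13.2 normalized counts in the authors' deposited table. The rise of Nfe2l2 and the value of Keap1 were not tested against each other.

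The 3 glutathione genes fell together. GCLC is the catalytic and GCLM the modifier subunit of glutamate-cysteine ligase, which carries out the rate-limiting step of glutathione synthesis, and GSR uses NADPH to return oxidised glutathione to its reduced form. Gclc (ENSMUSG00000032350, chromosome 9, 77754535 to 77794485) was lower in the authors' deposited table, at a log2 fold change of -0.66 (standard error 0.13, adjusted p 2.25e-06), from an implied 3958 to 2510 normalized counts. Gclm (ENSMUSG00000028124, chromosome 3, 122245557 to 122270732) was lower in the authors' deposited table, at a log2 fold change of -0.60 (standard error 0.17, adjusted p 0.00178), from an implied 3885 to 2557. As folds these were 0.63 (95% interval 0.53 to 0.75) and 0.66 (0.52 to 0.83), so that the intervals of the 2 subunits overlapped over most of their length. Gclm shares 4.71% of its exon bases with Gm17494 on the opposite strand, for which the authors' deposited table gives a log2 fold change of -0.09 (standard error 0.13, adjusted p 0.616). The strand setting of the counting is not given in the sources used here, so reads of such overlapping pairs cannot be told apart. Of the exon bases of Gclm, 3.88% lie in the transcribed pseudogene Gm6061 on the same strand, which a strand setting would not separate. Gsr (ENSMUSG00000031584, chromosome 8, 33652523 to 33698163) was lower in the authors' deposited table, at a log2 fold change of -0.51 (standard error 0.10, adjusted p 5.02e-06), from an implied 5473 to 3835 normalized counts.

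Prdx1 had the largest fall of the 10, while the gene of the enzyme that repairs its protein was not called. PRDX1 is an abundant cytosolic peroxidase that reduces hydrogen peroxide with electrons from thioredoxin, and SRXN1, sulfiredoxin, restores peroxiredoxins that peroxide has overoxidised. Prdx1 (ENSMUSG00000028691, chromosome 4, 116685544 to 116700822) was lower in the authors' deposited table, at a log2 fold change of -0.70 (standard error 0.10, adjusted p 5.06e-10), from an implied 8470 to 5206 normalized counts, a decrease to 0.61-fold (95% interval 0.53 to 0.71). Srxn1 (ENSMUSG00000032802, chromosome 2, 152105516 to 152111376) had in the authors' deposited table a log2 fold change of -0.09 (standard error 0.23, adjusted p 0.827). Its interval ran from 0.69-fold to 1.29-fold and so takes in part of the range of Prdx1.

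NADPH for these reactions comes in large part from the pentose phosphate pathway, whose first enzyme is encoded by G6pdx. G6pdx (ENSMUSG00000031400, chromosome X, 74409483 to 74429194) was lower in the authors' deposited table, at a log2 fold change of -0.48 (standard error 0.13, adjusted p 0.00097), from an implied 7754 to 5565 normalized counts. Its close copy G6pd2, with a mean of 1097, was lower in the authors' deposited table, at a log2 fold change of -0.49 (standard error 0.15, adjusted p 0.0040). The counter's treatment of reads that fit both copies is not stated, so their values cannot be taken as separate measurements. G6pdx also shares 13.6% of its exon bases with Ikbkg on the opposite strand, which was called higher at 0.23 (SE 0.09) in the authors' deposited table.

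Quinone and heme removal showed no called change by the Wald test, with wide intervals; 0 of these 2 genes had an unadjusted p under 0.05 either. NQO1 reduces quinones, dopamine quinone among them, by a step that avoids the reactive semiquinone, and HMOX1 opens the heme ring to biliverdin, iron and carbon monoxide. Nqo1 (ENSMUSG00000003849, chromosome 8, 107388225 to 107403206) had in the authors' deposited table a log2 fold change of 0.33 (standard error 0.29, adjusted p 0.420), at the lowest mean of the 10 genes. Its estimate was almost the same as that of Nfe2l2 with an error 3.2 times as large, and its interval ran from 0.85-fold to 1.86-fold. Hmox1 (ENSMUSG00000005413, chromosome 8, 75093621 to 75100589) had in the authors' deposited table a log2 fold change of -0.02 (standard error 0.49, adjusted p 0.984). Its interval, from 0.51-fold to 1.93-fold, holds the fold of every other member, so that neither a fall like that of Prdx1 nor a rise like that of Nfe2l2 could be told from no change.

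The error of Hmox1 was out of proportion to its level. Hmox1 had a mean of 1738 normalized counts, and its standard error was 4.40 times the median of 0.11 found for the 1511 tested genes within 1.2-fold of that mean; 99.3% of them had a smaller one. Srxn1 at 1.80 times, Gclm at 1.63 times and Nqo1 at 1.44 times the median of genes of like mean were also imprecise, whereas Nfe2l2 (0.81 times) and Keap1 (0.79 times) were more precise than most. Which libraries carry the spread of Hmox1 was not analysed here.

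**Figure D3:**
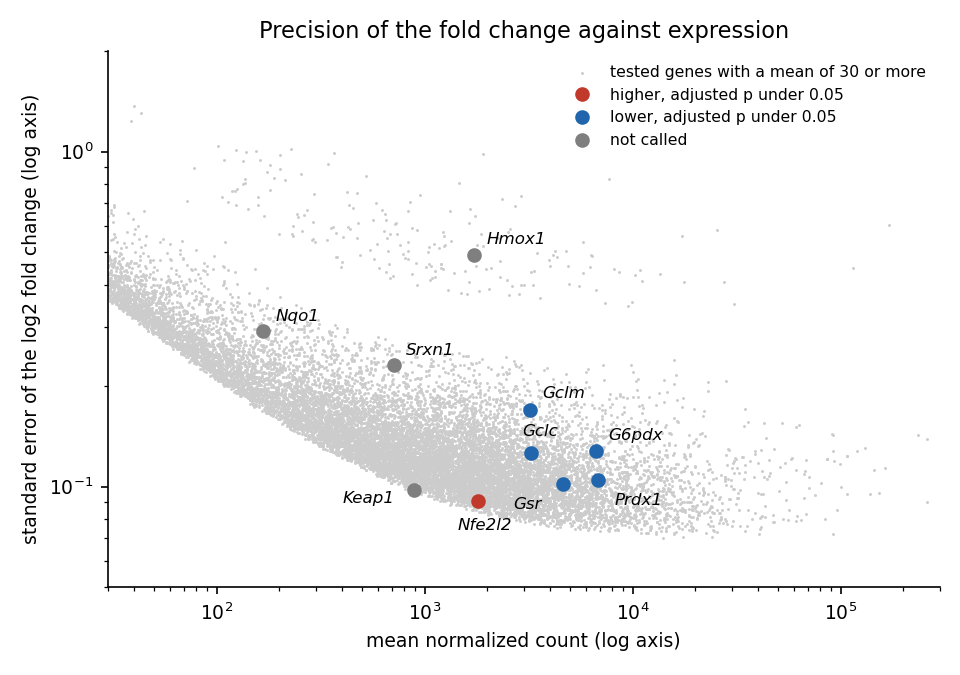
Standard error of the log2 fold change against the mean normalized count, both on log axes, for the members (coloured by call) and all tested genes with a mean of 30 or more (grey). Hmox1, with a standard error of 0.49 at a mean of 1738, lies far above the bulk of genes of its level, while Nfe2l2 and Keap1 lie at its lower edge.

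To compare levels between genes, the mean was divided by the kilobases of exon of each gene in GENCODE M21. Prdx1 (2247 normalized counts per kilobase), G6pdx (2162) and Gsr (1690) stood highest, each above at least 90.5% of the 20202 tested genes with a length. Hmox1 (992), Gclc (859), Gclm (512) and Nfe2l2 (479) followed, and Srxn1 (252), Keap1 (189) and Nqo1 (108) were lowest, Nqo1 lying below the median tested gene (133). The 3 most abundant members were thus all among the 5 that fell. The median standard error of genes of like mean was 0.10 for Prdx1 and 0.20 for Nqo1, so a given fold is called more readily at a high mean. Whether level goes with direction was not tested. Gclm went from 618 to 406 per kilobase and Nfe2l2 from 422 to 535, so that their order turned between the groups. The order also turned for Prdx1 (2783 to 1711) and G6pdx (2518 to 1807), and for Gclc (1051 to 667) and Hmox1 (999 to 986). With the longest transcript in place of all exon bases Nfe2l2 stood above Gclm in the mean as well, and the table gives no error for a level, so that neighbours in this order cannot be said to differ.

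**Figure D4:**
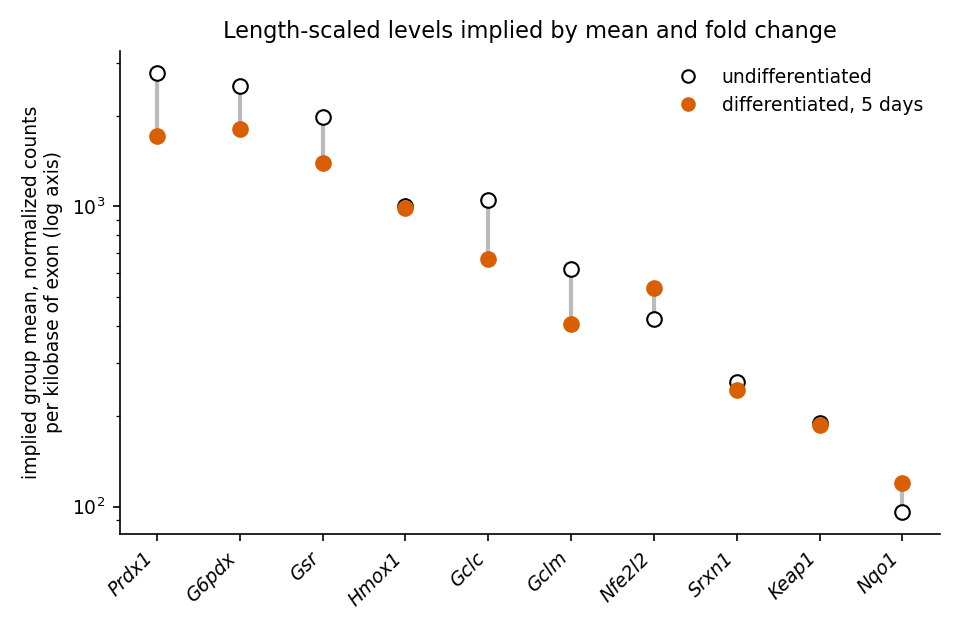
Implied group means in normalized counts per kilobase of exon (log axis) for undifferentiated (open circles) and differentiated cells (filled circles), in order of the overall mean. Prdx1, G6pdx and Gsr stay on top in both groups although all 3 are lower in differentiated cells; no error is available for these levels.

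The other genes of the pathway did not share one direction. The 6 further lists were drawn up by textbook roles, and a gene in them need not be a target of NRF2. In all they held 100 genes, of which 96 are analysed here and 90 were tested. Of the tested genes 23 were called higher and 18 lower, and their median log2 fold change was 0.03. Those shares, 25.6% and 20.0%, stand beside 18.2% and 17.7% over all tested genes; 75 of the 90 have a mean of at least 100, where 21.9% of all tested genes were called higher and 25.6% lower.

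Regulators of NRF2 were called higher in 5 and lower in 3 of 13 tested cases (median 0.18), or 38.5% and 23.1%. All 13 have a mean of at least 100, where 21.9% of tested genes were called higher and 25.6% lower. Bach2, a repressor of the BACH family that binds the same kind of element, was higher in the authors' deposited table, at a log2 fold change of 1.19 (standard error 0.27, adjusted p 6.26e-05), while its relative Bach1, the main competitor of NRF2 at Hmox1, stood at 0.18 (SE 0.12, adjusted p 0.255). The related factor gene Nfe2l1 rose by 0.78 (SE 0.17) and the small MAF gene Mafg by 0.33 (SE 0.11), and Mafk stood at -0.12 (SE 0.11), in the authors' deposited table. Gsk3b, a kinase that marks NRF2 for degradation independently of KEAP1, rose by 0.44 (SE 0.11), as did Sqstm1, the autophagy adaptor that binds KEAP1, by 0.43 (SE 0.09), in the authors' deposited table. Of the ligase that acts with KEAP1, Rbx1 fell by 0.26 (SE 0.09) and Cul3 had in the authors' deposited table a log2 fold change of -0.20 (standard error 0.09, adjusted p 0.0866). Palb2 and Dpp3, whose proteins are known to bind KEAP1 in competition with NRF2, fell by 1.13 (SE 0.16) and by 0.29 (SE 0.10) in the authors' deposited table; PALB2 is best known for DNA repair.

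Of 26 tested genes of glutathione supply and use, 8 were called higher and 1 lower, or 30.8% and 3.85% beside 18.2% and 17.7% over all tested genes. Their median log2 fold change was 0.18, and 0.04 over the 15 with a mean of at least 100. Gstm4 (0.75, SE 0.15), Gstm1 (0.73, SE 0.23), Gstm5 (0.67, SE 0.18) and Gstm2 (0.67, SE 0.15), neighbouring genes of mu-class glutathione transferases, were called higher in the authors' deposited table. These copies resemble each other closely, and how shared reads were counted is not stated. Slc7a11, the cystine importer that feeds glutathione synthesis and a well-known NRF2 target, stood at 0.01 (SE 0.09, adjusted p 0.953) at a mean of 18372 in the authors' deposited table. Gss, the second enzyme of glutathione synthesis, had in the authors' deposited table a log2 fold change of -0.22 (standard error 0.15, adjusted p 0.291). The single gene called lower was Gsto1 (-0.94, SE 0.37), at a mean of only 37.9, in the authors' deposited table.

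In the thioredoxin and superoxide list, 6 of 17 tested genes were called lower and 5 higher (median -0.20), or 35.3% and 29.4%. All 17 have a mean of at least 100, where 25.6% of tested genes were called lower and 21.9% higher. With either centring of the fold changes 4 genes of the list were lower and 5 higher, since Prdx6 and Sod2 lost their calls. The thioredoxin gene Txn1 fell by 0.63 (SE 0.12, adjusted p 1.51e-06) and Txnrd1, the selenium enzyme that recharges it, was lower in the authors' deposited table, at a log2 fold change of -0.74 (standard error 0.14, adjusted p 6.33e-07). Both act on the same chain of electrons as Prdx1. Txnip, which encodes an inhibitor of thioredoxin, was higher in the authors' deposited table, at a log2 fold change of 1.63 (standard error 0.25, adjusted p 1.83e-09). The sestrin genes Sesn3 (1.10, SE 0.18), Sesn2 (0.85, SE 0.19) and Sesn1 (0.58, SE 0.14) and the catalase gene Cat (0.58, SE 0.11) were the other 4 called higher in the authors' deposited table. Both tested superoxide dismutase genes were called lower in the authors' deposited table, Sod1 at a log2 fold change of -0.37 (standard error 0.11, adjusted p 0.00357) and Sod2 at -0.26 (standard error 0.11, adjusted p 0.0399). The call of Sod2 ended with centring on the median gene (adjusted p 0.0805) and on implied group totals (0.0659).

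Of 10 tested genes of NADPH supply outside G6pdx, 2 were called lower and 1 higher (median 0.05). These shares, 20.0% and 10.0%, stand beside 25.6% and 21.9% over tested genes with a mean of at least 100, which all 10 have. Over all tested genes the shares were 17.7% and 18.2%. Pgd, which takes the second NADPH-yielding step of the pentose phosphate pathway, fell by 0.25 (SE 0.10, adjusted p 0.0257), and Taldo1 of its later part fell by 0.22 (SE 0.09, adjusted p 0.0489), in the authors' deposited table. Centring on the median gene of mean 100 or more ended both calls (adjusted p 0.0589 and 0.105). Nnt, the mitochondrial transhydrogenase gene, rose by 0.40 (SE 0.10) in the authors' deposited table.

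Detoxification and export genes were split, with 5 of 16 tested genes called lower and 4 higher (median 0.04). These shares, 31.25% and 25.0%, stand beside 17.7% and 18.2% over all tested genes. Of the 16, 12 have a mean of at least 100, where 25.6% of tested genes were called lower and 21.9% higher. Ptgr1, a reductase of reactive aldehydes and leukotrienes, fell by 1.77 (SE 0.31, adjusted p 1.76e-07) at a mean of 106.7 in the authors' deposited table. Ugdh (-0.86, SE 0.18), the aldose reductase gene Akr1b3 (-0.65, SE 0.12), the carbonyl reductase gene Cbr3 (-0.62, SE 0.21) and Pir (-0.47, SE 0.14) were the other 4 called lower in the authors' deposited table. The microsomal epoxide hydrolase gene Ephx1 (1.01, SE 0.39), Osgin1 (1.97, SE 0.44), Aox1 (0.50, SE 0.16) and Cbr1 (0.28, SE 0.12) were called higher in the authors' deposited table. Of 8 heme and iron genes, 1 was called lower and 0 higher by the authors' Wald test (median -0.07), and it was Ftl1, the ferritin light chain gene, at -0.63 (SE 0.17, adjusted p 0.00125) in the authors' deposited table. These shares, 12.5% and 0%, stand beside 25.6% and 21.9% over tested genes with a mean of at least 100, which all 8 have. In that list 2 genes had an unadjusted p under 0.05. The other of them, the iron exporter gene Slc40a1, stood just outside the threshold at 1.45 (SE 0.61, adjusted p 0.0502) in the authors' deposited table, and passed it under 5 of the 8 alternatives.

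**Figure D5:**
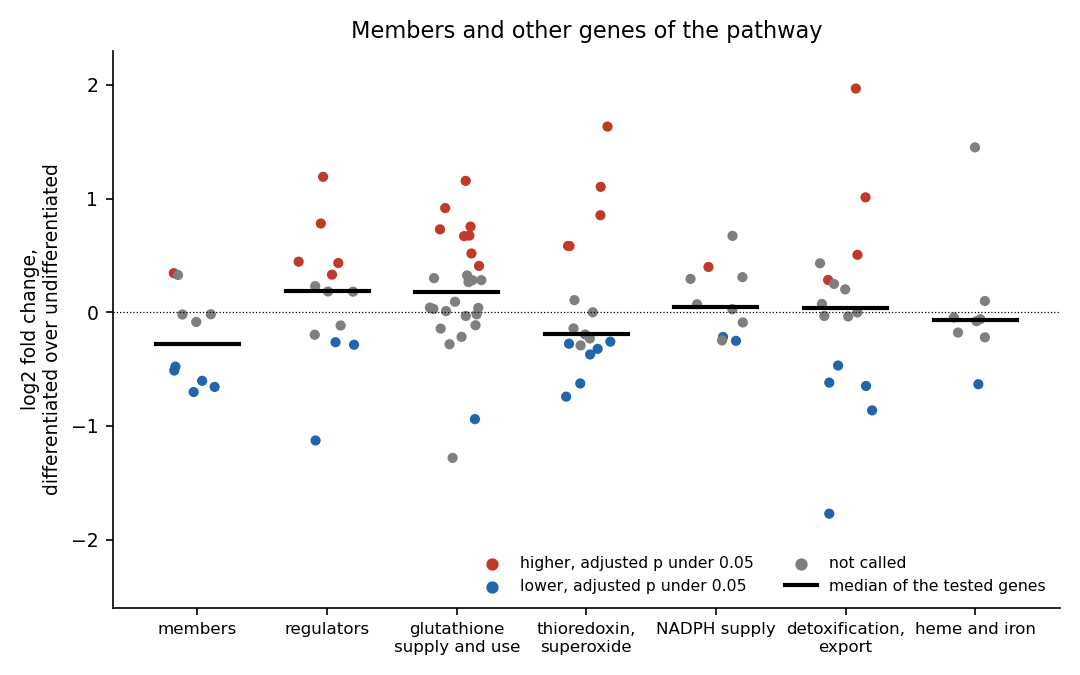
Log2 fold change of the 10 members and of the tested genes of 6 further lists, coloured by call, with each list's median as a bar. The members' median lies at -0.28 and those of the other lists between -0.20 and 0.18.

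The libraries were those of a neuronal catecholaminergic line by their markers. All 10 neuronal and catecholaminergic markers are in the authors' deposited table, with means from 59.7 for Ddc to 16488 for Tubb3, and Th at 91.3. Of the markers of astrocytes, microglia, oligodendrocytes and fibroblasts, 2, 2, 3 and 4 of 4 each are in the authors' deposited table, the highest means being 4.15, 1.32, 74.5 and 53.7. Summed over all genes, the mean normalized count came to 38846803.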

How the data were processed

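RNA was measured in 3 undifferentiated and 3 differentiated libraries, as single-end reads of 50 bp from stranded libraries per the labels' protocols. Per the submitters' processing notes, reads went through Trimmomatic 0.36, FastQC 0.11.5, STAR 2.5.1a on GRCm38.p6 and DESeq2, in an order these notes do not state; which counter, strand setting and annotation were used is not given in the sources used here. Per the file headers, the deposited signal is a mean normalized count per gene, and the log2 fold change, its log2 standard error, the Wald score and the p-value, raw and adjusted, are the authors'. The p-values and adjusted p-values were recomputed from the deposited fold changes and standard errors and matched to within 4.11e-15 and 1.44e-15. A count model was foreseen for tables per library; the deposited comparison was used as it stands.

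The members and gene lists were chosen with earlier results of these data known. The other genes named are, per list, the called genes with the largest change (at most 4, mean 100 or more), and 10 partners of NRF2 and glutathione; Sqstm1, Rbx1, Dpp3, Gsto1, Sesn1, Cat, Sod1, Sod2, Prdx6, Slc40a1, Osgin1, Aox1, Cbr1, Cbr3 and Pir were named after their values were seen. Intervals are 95% normal intervals. GENCODE M21 (GRCm38) held 26311 of the gene IDs and lacked 125. Promoters are RefSeq's (GRCm38.p6). Analyses used Python 3.11.15, pandas 2.3.3, numpy 2.4.6, scipy 1.17.1 and matplotlib 3.10.9.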

Additional observations from a re-analysis of the deposited data

How the results depend on the processing

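Alternatives were a threshold of 0.01, adjustment over genes with a mean of at least 10 or 100, over all genes with a p-value or over protein-coding genes, Benjamini-Yekutieli adjustment, and centring on the median gene (a shift of -0.03) or on implied group totals (-0.02). All 6 member calls and the 4 members not called kept their side of the threshold under all 8, with adjusted p at most 0.0187 for Gclm, the highest of the called. The uncalled values of Keap1 and Hmox1 changed sign with centring, to 0.013 and 0.015 on the median gene and to 0.0033 and 0.0049 on the totals. At 0.01, 10 other pathway genes were lower instead of 18, and 19 were higher instead of 23. By list, 1 regulator, 0 of the glutathione, 3 of the thioredoxin and 0 of the NADPH list were then lower. Of the detoxification list 2 were higher. With Benjamini-Yekutieli adjustment 9 other pathway genes were lower and 16 higher. The lower ones included 1 regulator, 0 of glutathione, 3 of thioredoxin and 0 of NADPH, and 5 of glutathione and 1 of detoxification were higher. Centring on the median gene gave 26 other pathway genes higher and 14 lower, and centring on totals 25 and 15. Over genes with a mean of at least 100 the glutathione list had 0 lower, since Gsto1 falls under that mean. The NADPH list had 1 lower over all genes with a p-value, 0 centred on the median gene and 1 centred on totals. In the heme and iron list 1 gene, Slc40a1, became called higher over genes with a mean of at least 10 or 100, over protein-coding genes and with either centring. No paired analysis was possible because the deposited table holds 1 comparison per gene. The labels number the undifferentiated libraries 1, 11 and 21 and the differentiated ones 5, 15 and 25, and do not state whether these mark matched sets. Leaving out single libraries needs values per library and was not run.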
